A study of Mus musculus with 6 samples.

Results

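The miRNAs of vesicles released by myoblasts were set against the miRNAs of osteoblasts, in order to list what the vesicles carry that osteoblasts lack and the reverse. The members are the miRNA precursor entries with 50 or more counts in the osteoblast (OB) library or with an average of 50 or more over the 4 libraries of extracellular vesicles (EVs). Of the 1006 entries in the table, 344 met this rule, 187 through both sides, 109 through OB alone and 48 through EVs alone. Just inside the level stood mir-669a-8 with 51 and mir-181c with 53 counts in OB, and just outside stood mir-187 with 48 counts in OB and mir-682 with a mean of 48.75 counts in EVs.

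Both kinds of EVs were collected from the medium of C2C12 cells, a mouse myoblast line. Myo-EVs (2 libraries) came from unstressed cells, and FFSS-Myo-EVs (2 libraries) came from cells under fluid flow shear stress (FFSS), which the study applied with an orbital shaker. Both were pelleted by ultracentrifugation after filtration, from medium with EV-depleted bovine serum. OB (1 library) were primary mouse osteoblasts, which the study's methods take from the calvariae of several newborn mice, whereas the labels give 8 to 10 weeks. The labels give a mixed C57BL/6J and 129/SvJ strain and no deletion or transgene for OB, and repeat this strain for the C2C12 libraries. The growth protocol in the labels is worded alike for every library and describes C2C12 cells with or without 1,25-dihydroxyvitamin D3 or dexamethasone, and it does not mention FFSS. No library of the C2C12 cells themselves is among the labels, so a miRNA that myoblasts make and a miRNA that is sorted into their EVs cannot be told apart. C2C12 is a single line, and nothing in the sources says that the replicate libraries came from separate cultures, so p-values measure only the spread between these libraries.

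The total count was 5181296 in OB and between 2414132 and 3029524 in the EV libraries. Every level below is the share of the library total per 1000000 counts (CPM), so that 1 count was worth 0.193 CPM in OB, and the limit that a count of 0 allows, 3 counts, was 0.579 CPM in OB and 1.10 CPM on average in the EV libraries. Intervals and this limit hold the error of counting alone, since amplified reads carry no molecular identifiers and need not stand for separate molecules. OB is 1 library, so the comparison with EVs has no replicate check on the OB side and is given as a description. A test by edgeR was run only as an alternative, with OB assumed to vary like the EV libraries, and it called 296 of the 344 entries past an adjusted p of 0.05. An exact permutation test of 4 libraries against 1, made two-sided by doubling the smaller tail, cannot give a p below 0.4. Replicate EV libraries differed by more than counting noise, with a chi-square per degree of freedom of 93.3 for the Myo-EV pair and 15.9 for the pair under FFSS. Counts were listed per precursor, without separating the 5p and 3p arms. Some copies of a precursor had nearly the same counts (let-7a-1 with 34639 and let-7a-2 with 33792 counts in OB) and others did not (mir-92a-1 with 5235 and mir-92a-2 with 531), so sums over copies may count a read more than once.

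MicroRNAs are short RNAs, cut from a hairpin precursor, that lead Argonaute proteins to messenger RNAs, mainly through the seed at bases 2 to 8. Neighbouring miRNA genes are often cut from 1 long transcript and then share a level of transcription. Cells release part of their miRNAs in EVs, small membrane vesicles that other cells can take up, and the mixture in EVs need not be that of the cell. In bone, osteoblasts make the matrix, and muscle lies beside it, so that RNA passed from myoblasts to bone cells stands out only where bone cells have little of it.

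The sequences below belong to entries in which EVs and OB stood far apart, or to close relatives that stood elsewhere. They are the mature sequences of RefSeq for GRCm38.p6, 5′ to 3′, with the seed (bases 2 to 8) in capitals, and 278 of the 344 entries were matched to that table. The arm is chosen for the comparison of seeds, since the counts do not tell the arms apart. The first group is from entries at least 10 times higher in EVs than in OB, on the X chromosome and in the Hox clusters, followed by muscle miR-206.
miR-881-3p: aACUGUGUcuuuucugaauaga
miR-741-3p: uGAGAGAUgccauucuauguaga
miR-871-5p: uAUUCAGAuuagugccagucaug
miR-743a-5p: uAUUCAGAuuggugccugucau
miR-465a-5p: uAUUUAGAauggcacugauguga
miR-465b-5p: uAUUUAGAauggugcugaucug
miR-465c-5p: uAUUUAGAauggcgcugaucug
miR-196a-5p: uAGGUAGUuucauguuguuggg
miR-196b-5p: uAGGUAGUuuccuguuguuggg
miR-10a-5p: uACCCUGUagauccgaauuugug
miR-206-3p: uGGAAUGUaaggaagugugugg
The next group is from entries at least 10 times higher in OB than in EVs. miR-148b-3p and miR-152-3p were added because they share the seed of miR-148a-3p.
miR-127-3p: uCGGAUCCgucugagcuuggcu
miR-379-5p: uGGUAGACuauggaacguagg
miR-411-5p: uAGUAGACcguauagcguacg
miR-541-5p: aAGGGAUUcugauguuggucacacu
miR-434-3p: uUUGAACCaucacucgacuccu
miR-10b-5p: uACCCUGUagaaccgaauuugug
miR-148a-3p: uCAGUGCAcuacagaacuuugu
miR-148b-3p: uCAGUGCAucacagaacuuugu
miR-152-3p: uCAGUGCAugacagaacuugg
Counted from 1 at the 5′ end, miR-10a-5p and miR-10b-5p differ by U12A, miR-196a-5p and miR-196b-5p by A12C, and miR-148a-3p and miR-148b-3p by C9U and U10C. None of these differences lies in the seed.

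Most of the RNA was common to both, and the difference lay in a limited number of entries. At a ratio of 10 between the mean share in the 4 EV libraries and the share in OB, 50 entries (14.5% of the 344) were higher in EVs and 81 (23.5%) were higher in OB. All 4 EV libraries lay above OB in 142 entries (41.3%) and below OB in 176 (51.2%), and OB lay inside the EV range in 26. The 103 entries within a ratio of 2 made up 58.5% of the counts of an EV library on average and 49.9% of those in OB. The 50 entries higher in EVs made up 7.90% of the EV counts (range 6.75% to 9.42%) and 0.184% of the OB counts. The 81 entries higher in OB made up 18.3% of the OB counts and 0.209% of the EV counts (range 0.175% to 0.235%). A further 48 entries were 2 to 10 times higher in EVs and 62 were 2 to 10 times higher in OB. The median log2 ratio of EVs over OB among all 344 entries was -0.26, and TMM factors moved it by -0.43, so that ratios near 1 depend on the scaling.

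**Figure D1:**
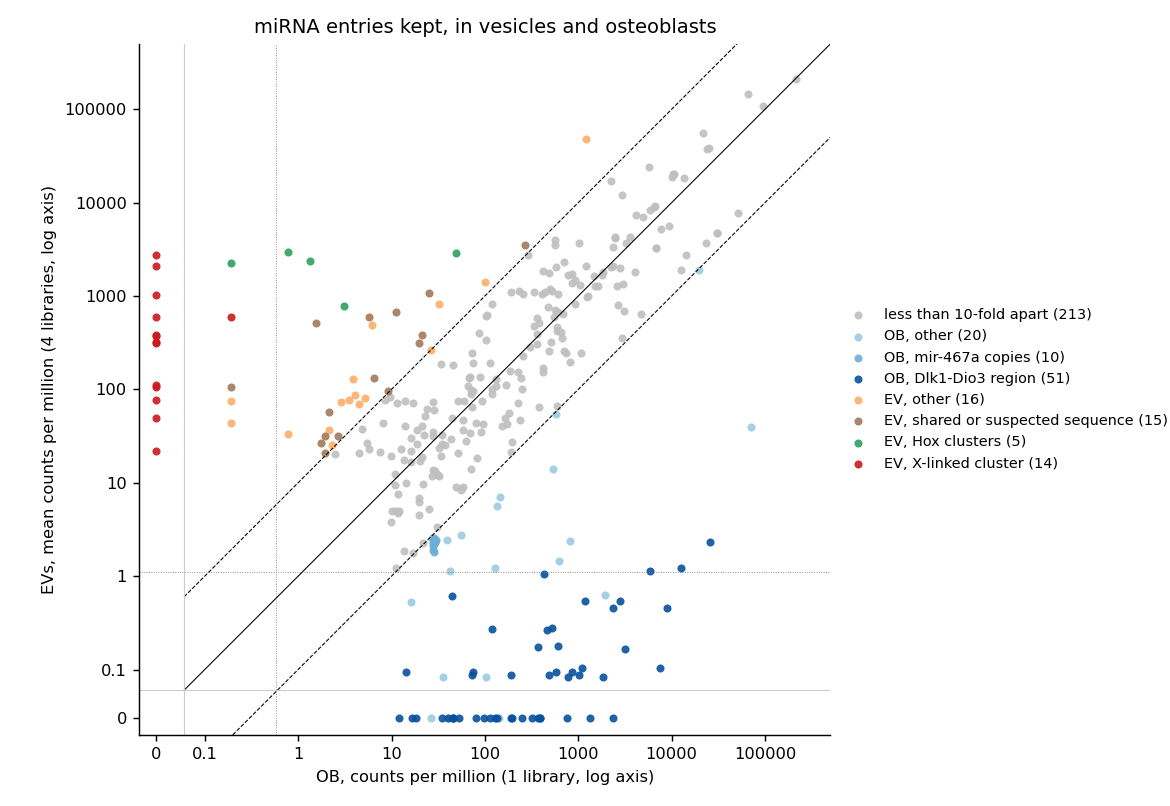
Share of counts in the OB library (x axis, CPM, log axis) and mean share in the 4 EV libraries (y axis, CPM, log axis) for the 344 entries, coloured by group with the number of entries in brackets. Values of 0 are drawn on the first tick of each axis, dotted lines mark 3 counts, the solid line marks equal shares and the dashed lines a ratio of 10. The 14 X-linked entries lie on the left edge, at 0 or 1 count in OB, and the 51 entries of the Dlk1-Dio3 region lie at or near 0 in EVs.

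Absence at this depth was common on both sides. OB had 0 to 3 counts in 18 entries, 13 of them at 0. In 56 entries the EV libraries had a mean of 0 to 3 counts, and 27 of them were at 0 in all 4 libraries. Among entries that reached the level in EVs, the median ratio of the highest to the lowest EV library was 1.42. Each of the 4 EV libraries taken alone was at least 10 times above OB in 42 of the 50 entries and at least 10 times below OB in 72 of the 81. The last entries past the ratio of 10 were mir-3470b (10.05 times higher in EVs) and mir-3473a (10.6), and those just short of it were mir-182 (9.44) and mir-675 (9.04). On the OB side mir-100 (10.4 times higher in OB) and mir-298 (10.6) were inside, and mir-142a (9.64) and mir-467b (9.60) were outside.

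The clearest set that EVs carried and OB lacked was a cluster of miRNA genes on the X chromosome, known for its expression in testis and germ cells. The 14 entries of its list that reached the level lay on the minus strand within 62.4 kb (chrX:66776757-66839125), in no annotated host gene. All 14 were at least 10 times higher in EVs, with a median log2 ratio of 9.21. They reached the level through EVs alone, so their common direction partly follows from the rule. Together they took 8870 CPM in EVs (8063 to 9777 over the 4 libraries), whereas OB had 1 count over all 14. No other entry that reached the level lay in this interval.

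The member with the highest level was mir-881, at 3421 and 2766 CPM in Myo-EVs and 2518 and 2424 CPM in FFSS-Myo-EVs (2782 ± 450 CPM, SD, n = 4), with 0 counts in OB. It was thus at least 4805-fold higher in EVs. All 4 EV libraries were at a similar height, and the 2 Myo-EV libraries were the highest. Next came mir-741, at 2194 and 2596 CPM in Myo-EVs and 1821 and 1856 CPM in FFSS-Myo-EVs, with 0 counts in OB and at least 3656-fold higher in EVs. The entry mir-871, whose 5p seed is shared with mir-743a, had 814 and 968 CPM in Myo-EVs and 1204 and 1133 CPM in FFSS-Myo-EVs, again with 0 counts in OB, and here the FFSS-Myo-EV libraries were the higher ones.

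The mir-465 copies, which share the 5p seed printed above, ranged from 317 CPM (mir-465b-2) to 595 CPM (mir-465c-2) on average in EVs. The single OB count in the 14 entries was in mir-465c-2, whose ratio was 3082 with an interval of 553 to 121744. The lowest of the 14 was mir-471, with 26.1 and 13.3 CPM in Myo-EVs and 23.4 and 24.1 CPM in FFSS-Myo-EVs. The list holds 7 further entries that did not reach the level, among them mir-463 with 12 to 33 counts and mir-880 with 18 to 58 counts per EV library, both with 0 counts in OB.

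The miRNAs of the Hox clusters, which lie among the genes that set position along the body axis, were split. Of 6 entries, 5 were higher in EVs past a ratio of 10 and mir-10b was higher in OB. The list had a median log2 ratio of 9.39. The entry mir-196a-2 (chr15:102973350-102973434, in an intron of Hoxc5) had 2889 and 2525 CPM in Myo-EVs and 3095 and 3251 CPM in FFSS-Myo-EVs, against 4 counts in OB. The ratio was 3808, with a 95% interval from the OB count of 1487 to 13976. The copy mir-196a-1 (chr11:96265164-96265265) had the same mature sequence and a mean of 2396 CPM in EVs and 7 counts in OB. From the Hoxa cluster, mir-196b (chr6:52230081-52230165, overlapping an exon of Hoxa9) had 2354 and 1910 CPM in Myo-EVs and 2405 and 2426 CPM in FFSS-Myo-EVs, against 1 count in OB, a ratio of 11781 with an interval of 2114 to 465329. The EV libraries stood together far above OB in all 3 of these entries, which share their seed.

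A seed was not enough to tell on which side an entry fell. The entry mir-10a (chr11:96317165-96317274, Hoxb cluster) had 3118 and 3313 CPM in Myo-EVs, 2565 and 2529 CPM in FFSS-Myo-EVs and 49.0 CPM (254 counts) in OB, and was 58.8 times higher in EVs. Its relative mir-10b (chr2:74726070-74726137, in introns of Hoxd3 and Hoxd4) had 11.8 and 11.6 CPM in Myo-EVs, 15.5 and 16.9 CPM in FFSS-Myo-EVs and 537 CPM in OB, and was 38.4 times higher in OB. The mature forms of this pair differ at 1 base outside the seed. The fifth Hox entry in EVs was mir-615, with a mean of 780 CPM in EVs against 3.09 CPM in OB.

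Of muscle miRNAs, many of which are switched on as myoblasts fuse into fibres, mir-206 was the most abundant in EVs. It had 683 and 818 CPM in Myo-EVs and 865 and 886 CPM in FFSS-Myo-EVs (813 ± 91.1 CPM, SD, n = 4) and 32.0 CPM in OB, a ratio of 25.4. Those of differentiated and heart muscle were low in EVs, since mir-133a-1 and mir-133a-2 had 4 to 19 counts per EV library, mir-133b 11 to 45, mir-1a-1 0, mir-1a-2 0 to 5, mir-499 0 to 4 and mir-208b 0. In OB, which had the larger library total, these 7 entries had 1 to 20 counts. For mir-133b it was 1 count, against the 11 to 45 per EV library, but this entry did not reach the level. The list had 11 entries in the table, of which 4 reached the level, 1 was past the ratio of 10 in EVs (mir-206) and 1 in OB (mir-1b, 671 counts in OB and 1 to 5 in EVs), and the median log2 ratio was 0.44.

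The most abundant entry past the ratio of 10 was mir-423 (chr11:77078064-77078172, in an intron of Nsrp1), a miRNA present in many tissues and in plasma. It had 54944 and 62080 CPM in Myo-EVs and 36904 and 36462 CPM in FFSS-Myo-EVs (47597 ± 12936 CPM, SD, n = 4) against 1209 CPM in OB, 39.4 times higher. This entry alone made the larger part of the 51309 CPM of 16 entries, mir-206 among them. These 16 were left on the EV side after the X-linked and Hox entries and the 15 of shared or suspected sequence described below. Others of these were mir-345 (chr12:108836973-108837068), at 1418 CPM in EVs and 101 CPM in OB, mir-7068 at 486 and 6.18 CPM, mir-139 at 128 and 3.86 CPM, and mir-188 at 74.2 CPM in EVs with 1 count in OB, a ratio of 384 with an interval of 69.0 to 15181.

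A part of the EV set may not be miRNA. Hairpins sharing 18 bases with transcripts of 20 or more other genes in the GENCODE M21 annotation were counted. Only entries matched to RefSeq were searched. These were 40 of the 50 entries higher in EVs, 68 of the 81 higher in OB and 170 of the other 213. Such hairpins were 11 of the 40, 0 of the 68 and 3 of the 170. The mir-3473 family and mir-690 were among them. mir-3473b shared such a stretch with 1050 genes, and had 315 and 345 CPM in Myo-EVs and 867 CPM in both FFSS-Myo-EV libraries against 5.79 CPM in OB. A list of entries suspected of being fragments of rRNA, tRNA or repeats, which was not tested here, held 17 entries that reached the level, and 12 of them were past the ratio of 10 in EVs and 0 in OB, with a median log2 ratio of 3.95. Its most abundant member was mir-6240, at 3505 ± 252 CPM (SD, n = 4) in EVs and 270 CPM in OB. Together, 15 entries of these kinds took 7544 CPM in EVs and 380 CPM in OB. Whether their reads came from the miRNA genes was not tested. Without the 11 entries that share sequence with many genes, 39 entries remained past the ratio of 10 in EVs. Of these 39, 10 had no RefSeq match and were not searched.

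**Figure D2:**
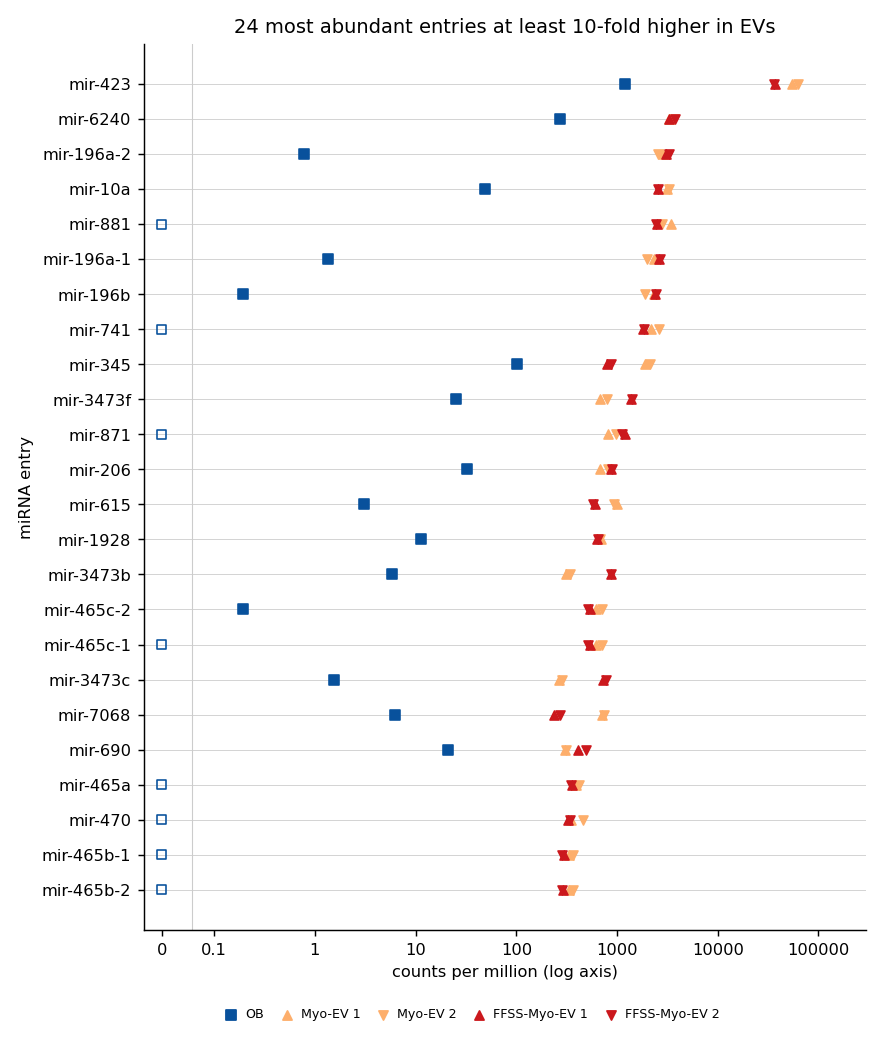
The 24 most abundant entries at least 10 times higher in EVs, 1 row per entry, with the share of counts in each library (x axis, CPM, log axis). Squares are OB, orange triangles are the 2 Myo-EV libraries, red triangles are the 2 FFSS-Myo-EV libraries, and open symbols on the first tick are values of 0. Every EV library lies above OB in each row, and of these rows OB reaches above 100 CPM for mir-423, mir-6240 and mir-345.

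By number of entries, what OB had and EVs lacked was mainly 1 imprinted region. The Dlk1-Dio3 region on chromosome 12 holds a large group of miRNA genes that are read from the maternal chromosome only and are known from embryonic and stem cells. All 48 entries of its list that reached the level were at least 10 times higher in OB, with a median log2 ratio of -9.68. They reached the level through OB alone, so their common direction partly follows from the rule. In the interval from the first to the last of them (chr12:109563692-109743795, 180.1 kb) 50 entries reached the level, and all 50 were on the OB side. They lay on the plus strand except mir-3544, mir-3071 and mir-299b. With the 1 list member that could not be placed, these 51 entries had 449902 counts in OB (86832 CPM). By share of counts the rest of the OB set was larger. Its 20 entries apart from these 51 and the mir-467a copies had 95931 CPM in OB and 2053 CPM on average in EVs. The EV libraries had 16, 16, 41 and 46 counts over all 51, or 10.8 CPM on average (5.57 to 17.3), with the higher numbers in FFSS-Myo-EVs.

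The most abundant was mir-127 (chr12:109592846-109592915), which is read antisense to the imprinted gene Rtl1. It had 25641 CPM in OB (95% interval 25505 to 25778), against 0.348 and 2.07 CPM in Myo-EVs and 2.64 and 4.14 CPM in FFSS-Myo-EVs. In OB, mir-379 (chr12:109709060-109709125) followed with 12593 CPM, mir-541 with 8876, mir-434 with 7455, mir-411 with 5814 and mir-382 with 3184 CPM. In EVs, mir-379 had 0.348 and 0.828 CPM in Myo-EVs and 2.64 and 1.13 CPM in FFSS-Myo-EVs, and mir-411 had 0.697 and 0.828 CPM in Myo-EVs and 0.330 and 2.64 CPM in FFSS-Myo-EVs. Levels in EVs were thus those of a few counts per library. mir-434 had 1 count over the 4 EV libraries, a ratio of 71985 with an interval of 14679 to 3230312, and mir-134, with 2337 CPM in OB and 0 counts in EVs, was at least 2121-fold higher in OB. Members with fewer counts in OB gave smaller lower bounds, such as at least 14.9-fold for mir-539 with 85 counts in OB.

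The list has 3 entries below the level, mir-3070-1, mir-3070-2 and mir-544, with 4 or 5 counts in OB and 0 or 1 in any EV library. A further entry, mir-3072, lies 4 kb beyond the interval (chr12:109747878-109747960, in an exon of Mirg) and had 211 counts in OB and 0 in all 4 EV libraries. Outside this region, chromosome 12 held mir-203 on the OB side, mir-345 on the EV side and 5 entries in between, so that mir-203 was the only entry of the OB side on this chromosome that lay apart from the imprinted region.

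The single most abundant entry of the OB set was mir-148a (chr6:51269812-51269910, no host gene), a miRNA with a known part in osteoclast formation. It had 70632 CPM in OB (95% interval 70411 to 70853), which made it the third entry of that library, against 20.9 and 29.8 CPM in Myo-EVs and 48.5 and 59.1 CPM in FFSS-Myo-EVs. The ratio was 1784. Its seed relatives, chosen after their values were seen, were also higher in OB and less far apart. mir-152 had 14390 CPM in OB and 2728 ± 400 CPM (SD, n = 4) in EVs, 5.28 times apart, and mir-148b had 3092 and 690 ± 80.8 CPM, 4.48 times apart. All 4 EV libraries lay below OB for these 3 entries, and in EVs mir-152 was the most abundant of them and mir-148a the least.

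Among the other entries of the OB set, mir-335 (in an intron of the imprinted gene Mest) had 1928 CPM in OB and 0 to 3 counts per EV library. The entry mir-455, known from cartilage, had 822 CPM in OB and 0 to 11 counts, and mir-340 had 625 CPM in OB and 3 to 6 counts. mir-483, in an intron of the imprinted gene Igf2, had 102 CPM in OB and 1 count over the 4 EV libraries, a ratio of 1240 with an interval of 201 to 44326. mir-675, cut from the neighbouring imprinted transcript H19, stood on the other side, with 106 and 139 CPM in Myo-EVs, 29.4 and 33.1 CPM in FFSS-Myo-EVs and 8.49 CPM in OB, short of the ratio of 10. mir-676 (in an intron of Eda) had 737 counts in OB and 0 in all 4 EV libraries. The 10 copies of mir-467a, from the Sfmbt2 cluster, were all past the ratio of 10, with 284 CPM in OB and 22.3 CPM in EVs over the 10. How reads common to such copies were counted is not given, so they may not be 10 separate observations. In the whole Sfmbt2 list 23 entries reached the level, 10 were past the ratio of 10 in OB and 0 in EVs, and the median log2 ratio was -2.87.

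**Figure D3:**
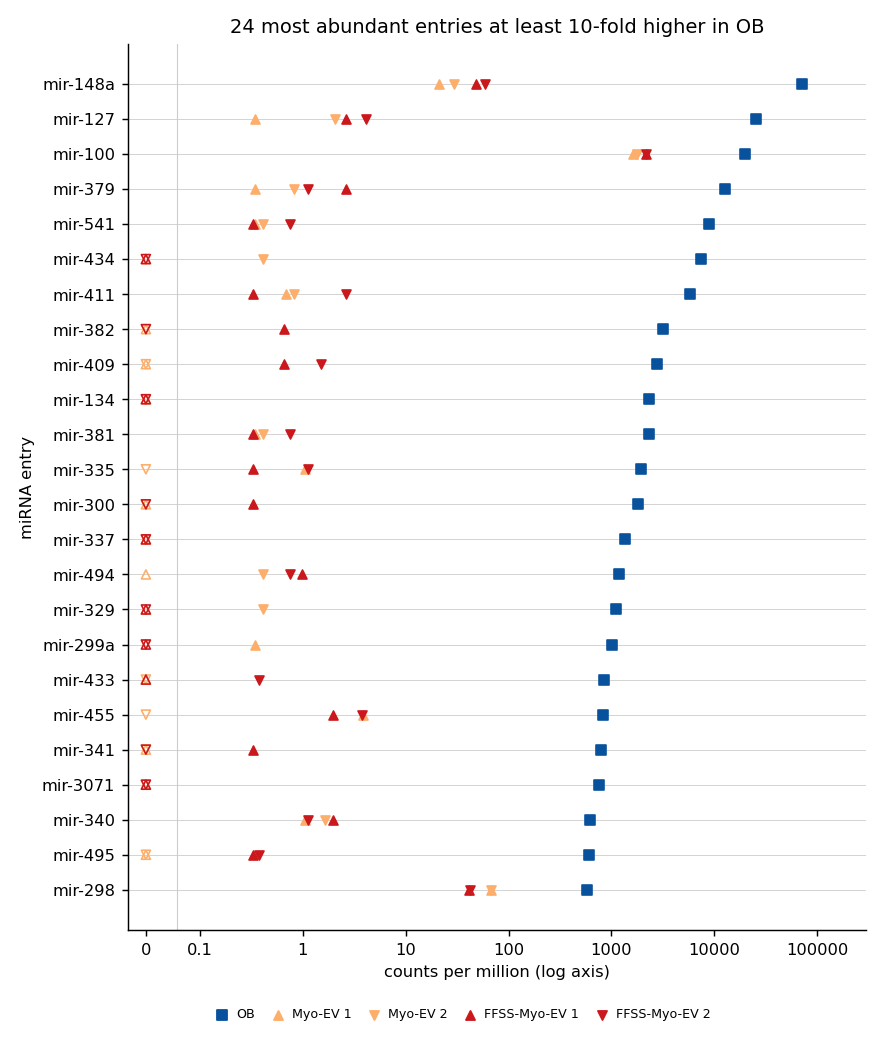
The 24 most abundant entries at least 10 times higher in OB, 1 row per entry, with the share of counts in each library (x axis, CPM, log axis). Squares are OB, orange triangles the 2 Myo-EV libraries, red triangles the 2 FFSS-Myo-EV libraries, and open symbols on the first tick are values of 0. Most EV values are of a few counts per library, and of the 24 rows mir-100, mir-148a and mir-298 have every EV library above 10 CPM.

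Of the 5 most abundant entries in EVs (mir-21a, let-7i, mir-143, let-7g and mir-423) and in OB (mir-21a, mir-143, mir-148a, let-7i and mir-27b), 3 were shared. mir-21a, an oncogenic miRNA found in most cultured cells, had 215995 CPM in OB and 212562 ± 14085 CPM (SD, n = 4) in EVs, and OB lay inside the EV range. mir-143, from smooth muscle and mesenchyme, had 94188 CPM in OB and 109668 ± 14327 CPM (SD, n = 4) in EVs. By library totals, the let-7 family, which marks differentiated cells, was higher in EVs throughout. All 14 entries of let-7 and mir-98 had all 4 EV libraries above OB. Of these, 0 were past the ratio of 10, and the median log2 ratio was 0.95. TMM factors moved the median log2 ratio of all 344 entries by -0.43. Whether each of the 14 entries stayed above OB with those factors was not tested. Summed, the 14 entries took 383737 CPM in EVs (336340 to 424136) and 185131 CPM in OB. let-7i was the largest, at 140494 and 147230 CPM in Myo-EVs and 156441 and 140429 CPM in FFSS-Myo-EVs against 65575 CPM in OB.

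Other groups were split between the sides. In the group of mir-99, mir-100 and mir-125, mir-100 had 19869 CPM in OB and 1917 CPM in EVs and mir-99a had 12500 and 1888 CPM, while mir-125a had 2228 CPM in OB and 17165 CPM in EVs. In the list of mir-17-92 and its paralogs, which drive proliferation, 7 of 11 entries had all EV libraries above OB and 3 had all below, with a median log2 ratio of 0.80. mir-20a had 708 CPM in OB and 2321 CPM in EVs. In the mir-322 and mir-503 cluster, known from myoblast cell cycle exit, 6 of 7 entries had all EV libraries below OB, with a median log2 ratio of -1.45, and mir-322 had 2915 CPM in OB and 352 CPM in EVs. In the mir-188 and mir-532 cluster in Clcn5, 4 of 5 entries had all EV libraries above OB, with a median log2 ratio of 1.12, but only mir-188 was past the ratio of 10, while mir-532 had 524 CPM in OB and 1138 CPM in EVs.

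**Figure D4:**
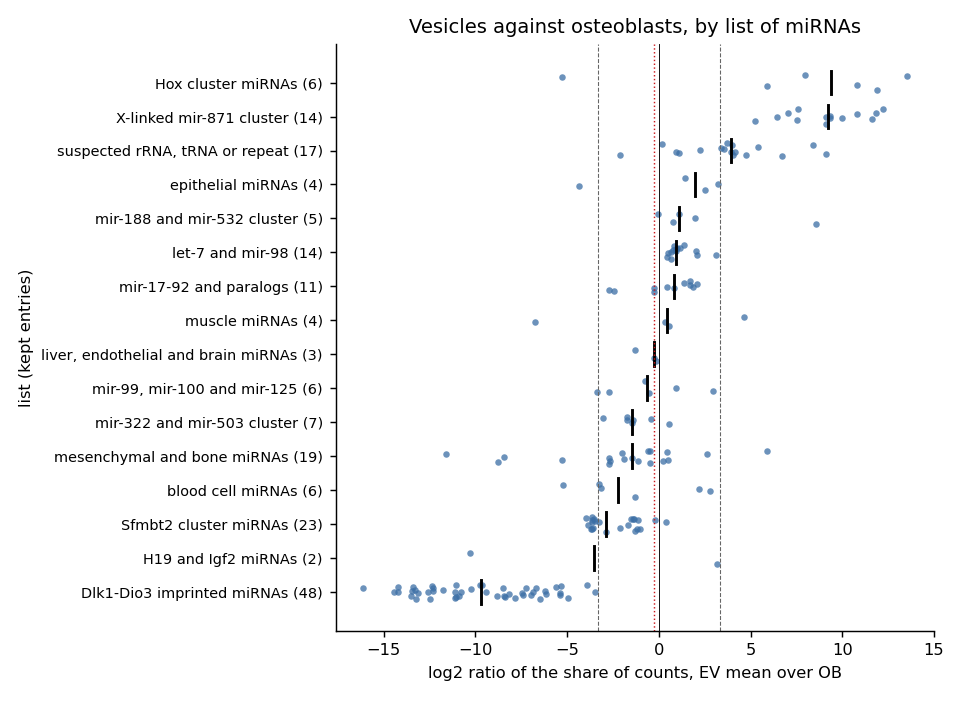
Log2 ratio of the mean share in the 4 EV libraries over the share in OB (x axis) for the members of each list of miRNAs (rows, number of entries that reached the level in brackets). Points are entries, black bars are list medians, the dotted line is the median of all 344 entries (-0.26) and the dashed lines mark a ratio of 10. The X-linked and Dlk1-Dio3 lists lie wholly past opposite dashed lines.

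The labels were checked against miRNAs that mark cell types. Of the mesenchymal and bone list, 19 entries reached the level, 14 had all EV libraries below OB and 5 all above, and the median log2 ratio was -1.48. mir-199a-2 had 30788 CPM in OB and 4691 CPM in EVs, mir-199b 23367 and 3697 CPM, and mir-214 2807 and 2010 CPM, all with the 4 EV libraries below OB. By library totals, other abundant members of the list had all 4 EV libraries above OB. Among them were mir-140, known from cartilage, with 13543 CPM in OB and 18425 CPM in EVs, and mir-145a with 5796 and 8236 CPM. Another was mir-31, with 567 and 3543 CPM. Whether the smaller of these differences keep their direction with TMM factors was not tested. Both OB and EVs thus carried miRNAs of mesenchymal cells. Of the blood cell markers, OB had mir-223 at 221 counts, mir-142a at 89, mir-150 at 5, mir-144 at 1 and mir-451a at 2 counts, while mir-342 had 988. In the EV libraries, mir-223 had 0 to 7 counts and mir-451a 3 to 26. The blood list had 6 entries that reached the level, with a median log2 ratio of -2.23, and its sum was 1325 CPM in OB and 3973 to 5676 CPM in EVs, most of it mir-146b. In bulk libraries fewer cells of a type and less RNA per cell cannot be told apart, and the part of any blood cells in the OB values was not tested. Of the markers of liver and serum, epithelium and endothelium, mir-122 had 7 counts in OB and 4 to 18 in the EV libraries, mir-200a, mir-200b, mir-200c, mir-141, mir-429 and mir-205 had 0 to 18 in OB and 0 to 9 in EVs, and mir-126a had 267 and 19 to 101. mir-203, known from skin epithelium, was higher, with 756 counts in OB and 7 to 29 in the EV libraries. The epithelial list also holds the mir-183, mir-96 and mir-182 cluster, which was higher in EVs (mir-182 at 2757 CPM in EVs and 292 CPM in OB), and its median log2 ratio over 4 entries was 1.96. For the list of liver, endothelial and brain miRNAs, with 3 entries, it was -0.24, and for mir-483 and mir-675 it was -3.55.

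FFSS-Myo-EVs were compared with Myo-EVs by edgeR's quasi-likelihood test on counts, with Benjamini-Hochberg adjustment over the 354 entries with a mean normalized value of at least 10. Of these, 43 (12.1%) were higher and 65 (18.4%) lower under FFSS past an adjusted p of 0.05. All 50 entries of the EV set were tested, and 13 of them (26%) were higher and 18 (36%) lower. Among the 208 tested entries on neither side, 23 (11.1%) were higher and 34 (16.3%) lower. These counts take each copy of a precursor as an entry, and they depend on single libraries. Without FFSS-Myo-EV replicate 1 they were 19 higher and 25 lower over all entries and 7 and 5 in the EV set, and without FFSS-Myo-EV replicate 2 they were 24 and 21 over all and 7 and 6 in the EV set. Of the 31 calls in the EV set, 7 higher and 5 lower ones were made with each library left out in turn. With library totals in place of trimmed-mean (TMM) factors, 49 were higher and 46 lower over all entries, and 14 and 9 in the EV set. With 2 libraries against 2, an exact two-sided permutation test of a single entry cannot give a p below 0.333.

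The 7 higher calls that held with each library left out were mir-3473b, mir-3473c, mir-3473e, mir-3473f, mir-1934, mir-6236 and mir-703, and the 5 lower ones were mir-188, mir-344b, mir-345, mir-615 and mir-7068. The higher ones, mir-703 apart, belong to the 15 entries that share sequence with many genes or are suspected fragments, of which 9 were higher and 1 lower in all. mir-3473c had 265 and 285 CPM in Myo-EVs and 721 and 785 CPM in FFSS-Myo-EVs, a log2 fold change of 1.37 ± 0.13 (SE, adjusted p = 1.63e-22 by edgeR). mir-703 had 8.71 and 6.21 CPM in Myo-EVs and 57.4 and 61.4 CPM in FFSS-Myo-EVs, a log2 fold change of 2.89. In the other direction, mir-345 had 1884 and 2116 CPM in Myo-EVs and 798 and 875 CPM in FFSS-Myo-EVs, a log2 fold change of -1.34. mir-188 had 115 and 111 CPM in Myo-EVs and 31.7 and 39.2 CPM in FFSS-Myo-EVs, with a log2 fold change of -1.76, and mir-7068 had 703 and 734 CPM and then 236 and 272 CPM, with a log2 fold change of -1.58. mir-615, the 1 Hox entry among these 12 calls, had a log2 fold change of -0.79 ± 0.13 (SE, adjusted p = 1.17e-08 by edgeR).

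Members of the lists of other cell types also differed between the EV conditions. Of the blood list, mir-451a, the erythrocyte miRNA, had 3 and 4 counts in the Myo-EV libraries, against 26 and 16 under FFSS (log2 fold change 2.36, adjusted p = 6.79e-05 by edgeR), mir-155 was higher (0.70), mir-146b was lower (-0.55, a call lost without either FFSS-Myo-EV library), and 2 of 5 tested members were not called. mir-126a of endothelium was higher (1.43, lost without FFSS-Myo-EV replicate 1), as was mir-122 of liver (1.47, lost with any of 3 libraries left out), among 8 tested members of their list. Of the 4 epithelial members tested 0 were called. Of the muscle list, mir-133a-1 (-1.49, lost with any of 3 libraries left out), mir-133a-2 (-1.92) and mir-133b (-1.75) were lower among 6 tested members. The part of these in the other differences between the EV conditions was not tested.

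In the X-linked cluster 2 of 14 entries were higher (mir-871 and mir-883a) and 7 lower in FFSS-Myo-EVs, with log2 fold changes from -0.45 (mir-741) to 0.58 (mir-883a). The lower ones included both copies of mir-465b and both of mir-465c. The copies had nearly equal counts and may not be separate observations. None of these 9 calls was made without either FFSS-Myo-EV library, and with library totals 2 entries were higher and 1 lower. The study listed mir-196a among the miRNAs that FFSS raised in its small RNA sequencing, chosen by level and fold change of normalized values. It then reported a rise of miR-196a-5p in EVs by quantitative PCR. Over the 5 Hox entries of the EV set, the median log2 fold change was 0.10 with all libraries. It was 0.31 without Myo-EV replicate 1 and 0.002 without Myo-EV replicate 2. Without FFSS-Myo-EV replicate 1 it was 0.03, and without FFSS-Myo-EV replicate 2 it was 0.19. Its size thus depended on single libraries, and the lack of a call for mir-196 with all libraries does not show equal levels. For mir-196a-2 the log2 fold change was 0.15 (adjusted p = 0.501 by edgeR), and for mir-196b it was 0.10 (adjusted p = 0.682 by edgeR). mir-423 had a log2 fold change of -0.75 (adjusted p = 0.00505 by edgeR), a call that was lost without either FFSS-Myo-EV library. In the OB set 75 of 81 entries were too low in EVs to be tested. Of the 6 tested, mir-148a was higher in FFSS-Myo-EVs (log2 fold change 1.01, adjusted p = 8.38e-04 by edgeR) and mir-298 lower (-0.79), both lost without either FFSS-Myo-EV library, and the highest EV library of mir-148a, at 59.1 CPM, was still far below its 70632 CPM in OB.

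**Figure D5:**
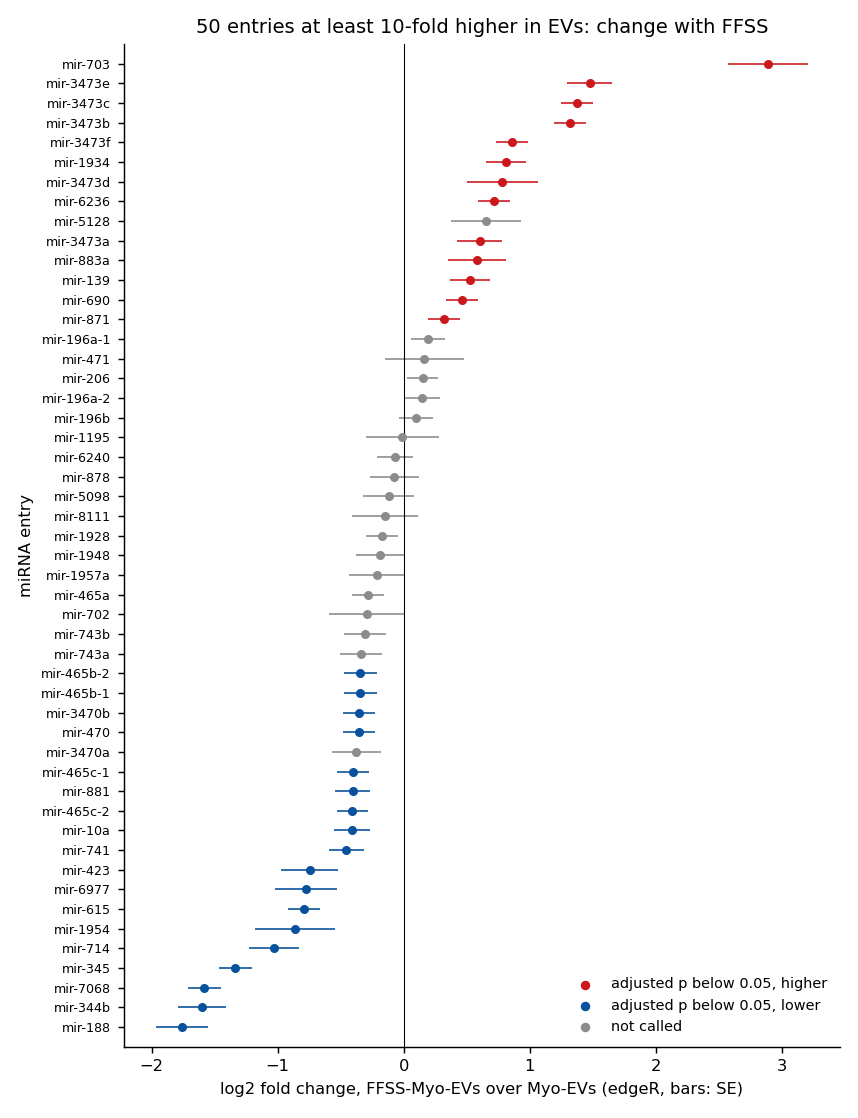
Log2 fold change of FFSS-Myo-EVs over Myo-EVs (x axis, edgeR) for the 50 entries at least 10 times higher in EVs than in OB, sorted by its size, with bars for the standard error. Red points are higher and blue points lower at an adjusted p below 0.05, and grey points were not called, with mir-703 at one end (2.89) and mir-188 at the other (-1.76).

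Apart from position, the sets shared few sequence features. The median GC content of the hairpin was 43.2% in the EV set, 47.8% in the OB set and 48.0% over all entries with a hairpin. Short motifs that have been tied to RNA sorting into vesicles were counted on the sense strand of the RefSeq mature arms. GGAG occurred in a mature arm of 17.5% of the 40 matched entries of the EV set, 17.6% of the 68 of the OB set and 15.6% of all 276. CCCU occurred in 27.5%, 19.1% and 19.2%, and GGCU in 22.5%, 20.6% and 21.0%, respectively. A match says only that these letters are in the arm.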

How the data were processed

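Small RNA libraries were made from 90 ng of total RNA with a kit from NEBNext, per the labels. With CLC Genomics Workbench the authors collapsed identical reads, annotated them from miRBase and deposited 1 raw count for each precursor entry, and the submitters' notes name the build mm10. Which miRBase release and mismatch limit they used, and how a read with more than 1 matching precursor was counted, is not given in the sources used here. The authors also deposited a normalized signal, which in the values was the count times 1 constant per library.

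5 of the 6 libraries were used, since bone marrow is not part of this comparison. A side at 0 was set to 3 counts per library, and its ratio is a lower bound. Intervals are 95% exact Clopper-Pearson intervals on the OB count, or on the summed EV count where EVs were the lower side. The FFSS comparison used edgeR 4.0.16 (TMM factors, 2 libraries against 2), tested on simulated data, and DESeq2 1.42.0 as an alternative, in R 4.3.3. Other steps used python 3.11.15, pandas 2.3.3, scipy 1.17.1 and matplotlib 3.10.9. Hairpins, mature sequences and positions came from RefSeq (GRCm38.p6), and host genes and the search for stretches of 18 bases used GENCODE M21 (GRCm38).

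The entries named were the 12 most abundant on either side, the 5 largest ratios, the 5 most abundant in EVs and in OB, those next to a threshold, up to 4 of each list, and neighbours within 10 kb. Others, among them mir-10b, mir-148b, mir-152, mir-615, mir-223, mir-340, mir-455, mir-676, mir-139, mir-690, mir-703, mir-7068, mir-344b, the members below the level, the markers of other cell types with FFSS calls, further members of the mir-3473 family and the entries on opposite sides of OB, were named after their values were seen. The members, lists and tests were chosen with earlier results of these data known.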

Additional observations from a re-analysis of the deposited data

Results flagged for a closer look

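In 8 entries that reached the level, both Myo-EV libraries lay on one side of OB and both FFSS-Myo-EV libraries on the other, by shares of the library totals. OB is the same 1 library on both sides, so the adjusted p-values of edgeR given here are those between the EV conditions. The sides depend on the scaling, since with TMM factors, an alternative chosen after seeing the data, 2 of the 8 stayed on opposite sides (mir-351, mir-6412). The widest was mir-351, a member of the mir-322 and mir-503 cluster, with 2328 CPM in OB, 4473 and 4526 CPM in Myo-EVs and 2188 and 2218 CPM in FFSS-Myo-EVs (log2 fold change -1.11 ± 0.15, SE, adjusted p = 2.58e-12). mir-181b-2 had 365 CPM in OB, 410 and 456 CPM in Myo-EVs and 346 CPM in both FFSS-Myo-EV libraries. mir-1964 had 35.1 CPM in OB, 38.7 and 40.6 CPM in Myo-EVs and 26.7 and 22.6 CPM in FFSS-Myo-EVs. mir-6412 had 10.8 CPM in OB, 14.6 and 14.9 CPM in Myo-EVs and 10.6 and 9.41 CPM in FFSS-Myo-EVs (adjusted p = 0.190).

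The other 4 were below OB in Myo-EVs and above it in FFSS-Myo-EVs. mir-7a-1 had 1835 CPM in OB, 1535 and 1405 CPM in Myo-EVs and 2161 and 2109 CPM in FFSS-Myo-EVs, and the copy mir-7a-2 had 1793, 1409, 1306, 2040 and 1965 CPM in the same order. mir-30b had 257 CPM in OB, 178 and 169 CPM in Myo-EVs and 264 and 291 CPM in FFSS-Myo-EVs. mir-466i had 10.8 CPM in OB, 5.22 and 4.97 CPM in Myo-EVs and 11.9 and 15.4 CPM in FFSS-Myo-EVs.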

How the results depend on the processing

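The counts of 50 entries higher in EVs and 81 higher in OB ranged from 49 to 51 and from 78 to 82 with an EV library left out. They were 44 and 89 with TMM factors, 66 and 103 at a ratio of 5 and 36 and 63 at a ratio of 20. Without a minimum level 87 entries were higher in EVs. At a level of 20 counts, 34 entries had 0 to 3 counts in OB instead of 18, and requiring 0 counts in all EV libraries left 27 of 56 entries. The 14 X-linked and 48 Dlk1-Dio3 entries stayed past the ratio of 10 under each of the 11 alternatives of scaling, added count and libraries used. Of 869 alternative ratios of 79 named entries, 102 moved by more than the spread of the EV libraries. A change of side was counted only for named entries past the ratio of 10, and 0 were found. For entries nearer to equal shares, changes of side were not counted.

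With a library left out, entries higher in FFSS-Myo-EVs numbered 19 to 60 (43 with all) and entries lower 21 to 72 (65 with all). DESeq2 gave 36 and 46. With the replicate block they were 44 and 66, but the labels tie the numbers to no shared culture, and the differences between replicates correlated at 0.205 over the 2 pairs. The single OB library limits every comparison with EVs.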
